A study of Rattus norvegicus with 18 samples.

Results

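Autophagy delivers worn-out proteins and organelles to the lysosome, and 40 of its genes were followed in RNA from rat nucleus pulposus cells in culture. The nucleus pulposus is the soft centre of an intervertebral disc. The genes were taken by symbol from the deposited count table, which held 39 of the 40 among 33898 genes. Atg4a was not analysed here. All 39 passed the filter on low counts, as did 14184 genes of the table. They span the steps of the pathway: initiation (5 genes), nucleation (6), membrane supply and expansion (5), conjugation (8 of 9), the ATG8 family (5), cargo receptors (5), and the lysosome with the tethers that fuse autophagosomes to it (5).

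The cells came from nucleus pulposus tissue of Sprague Dawley rats aged 8 weeks and were plated for 24 hours. Compound was then added for a further 24 hours. PDS, Phen-DC3 and Braco-19 are G-quadruplex ligands: each binds the stacked folds that guanine-rich stretches of DNA or RNA can form. Each of 6 groups had 3 libraries: PDS and its controls, Phen-DC3 and its controls, Braco-19, and a control group whose titles name no compound. The last was paired with Braco-19 by elimination and is called the unnamed control group. The labels give no doses and do not say what the controls received, so a difference between compounds may also be a difference in dose. The 3 libraries per group are named as biological repeats, with no word on separate cultures or animals, so the p-values measure only the spread between these libraries.

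Autophagy begins when the ULK1 kinase complex responds to starvation or to loss of mTORC1 activity. A lipid kinase complex around BECN1 and PIK3C3 then marks a membrane patch, which WIPI proteins, ATG2 lipid-transfer proteins and ATG9 vesicles help to expand. Ubiquitin-like conjugation by ATG7, ATG3, ATG10 and the ATG12-ATG5-ATG16L1 complex attaches ATG8 proteins (the LC3 and GABARAP families) to that membrane, where they hold cargo receptors such as SQSTM1, also called p62. TFEB switches on many lysosomal and autophagy genes. Nucleus pulposus cells live without blood vessels at low oxygen and low glucose, and autophagy is studied in them for that reason. Transcript levels, as measured here, do not give the rate of autophagy.

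Because the compounds bind guanine-rich structures, the promoter sequences of the genes are shown first. RefSeq promoters (rat build GRCr8, 250 bases before to 50 bases after the gene start) were given for 36 of the 40 genes, and Atg9a, Map1lc3a, Rb1cc1 and Becn1 had none. The pattern searched was 4 runs of GGG or longer with 1 to 7 bases between runs, on either strand. It was found in 7 of the 36 promoters (19.44%): Ulk1, Atg2b, Atg4b, Atg10, Atg14, Gabarapl1 and Calcoco1. The same pattern was in 16.98% of all 27457 promoters and in 22.5% of the 13853 promoters of genes named in the count table, so the share among autophagy genes lay between these. Sqstm1, Atg5, Atg101, Gabarap and Ulk2 passed a test under a compound and lack the pattern, while Ulk1, Atg10, Atg14 and Calcoco1 hold it and passed none. Below are the matches of 3 genes whose levels passed a test under a compound, and of Calcoco1, the gene that varied most between replicates. Capitals mark the whole pattern, and runs of C are runs of G on the other strand. Distances are those of the match, and coordinates are those of the whole printed stretch with its flanking bases. The match of Gabarapl1 lies 129 to 108 bases before the start (stretch chr4:164666183-164666244, plus strand). The match of Atg4b lies 181 to 155 bases before it (stretch chr9:101729688-101729754, plus strand). Those of Atg2b (142 to 117 bases before, stretch chr6:130357206-130357271) and Calcoco1 (135 to 114 bases before, stretch chr7:135728022-135728083) are on genes of the minus strand.
Gabarapl1: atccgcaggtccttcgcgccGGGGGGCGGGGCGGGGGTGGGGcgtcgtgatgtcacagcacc
Atg4b: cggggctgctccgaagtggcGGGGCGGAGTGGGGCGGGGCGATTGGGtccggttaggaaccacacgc
Atg2b: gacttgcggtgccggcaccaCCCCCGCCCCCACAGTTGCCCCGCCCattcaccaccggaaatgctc
Calcoco1: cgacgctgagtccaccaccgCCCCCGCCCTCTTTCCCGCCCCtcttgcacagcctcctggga

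The second search was for CACGTG, the palindromic core that TFEB and other E-box factors can bind. It was in 5 of 36 promoters (13.89%), those of Atg3, Atg5, Atg14, Lamp1 and Vps11, against 6.65% of all promoters and 8.32% of those of genes named in the count table. A longer palindrome around the same core was searched as well. It was in 0 of the 36 promoters, against 0.28% of all promoters and 0.43% of those of genes named in the count table. With shares this low, 36 promoters are too few for a comparison. Atg14 is the 1 gene of the set whose promoter holds both the pattern of G runs and CACGTG. Atg5, which rose with PDS, holds 1 match, 19 to 14 bases before its start (printed stretch chr20:49380796-49380834, plus strand). Lamp1 holds 5 matches, in clusters of 3 and 2, and its level is described below. The cluster of 3 lies 183 to 145 bases before the start (printed stretch chr16:83075188-83075266, minus strand). The cluster of 2 lies 65 to 33 bases before it (printed stretch chr16:83075076-83075148). Capitals mark CACGTG. A match describes the letters only and is not evidence of binding.
Atg5: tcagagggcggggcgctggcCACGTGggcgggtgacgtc
Lamp1, far cluster: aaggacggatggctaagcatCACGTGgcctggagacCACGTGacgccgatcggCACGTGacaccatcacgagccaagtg
Lamp1, near cluster: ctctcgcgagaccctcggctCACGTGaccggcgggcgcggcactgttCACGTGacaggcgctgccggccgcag

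Library totals ran from 15715121 to 18369443 counts, and the autophagy genes held 59072 to 89528 of them (0.365 to 0.526%). Levels are given as CPM, counts scaled by library size. Of the disc-cell markers looked for, Pax1 (means of 76.1 to 111 CPM per group) and Foxf1 (35.1 to 44.2) were present in every group, the cartilage factor Sox9 had 5.46 to 19.4 CPM, and Col2a1 had 9.80 to 20.3 CPM. Of the notochordal markers, Krt8 (7.20 to 15.5 CPM) and Cd24 (12.5 to 39.8 CPM) were present in every group, while Krt19 and Tbxt had 0 counts in all 18 libraries. Krt18 had at most 2 counts in any library, and Ca12, of the same list, had 0.27 to 2.75 CPM. Acan, which codes for the main disc proteoglycan, had 0.14 to 0.22 CPM in the PDS and Phen-DC3 groups and their controls, and 2.85 and 1.74 CPM in the unnamed control and Braco-19 groups. The endothelial gene Cdh5 and the leukocyte gene Ptprc had 0 counts throughout. The share of counts in gene models over 5000 bp was 8.66 ± 0.59% (SD, n = 3) in PDS controls and 8.67 ± 0.29% with PDS. It was 9.99 ± 0.74% in Phen-DC3 controls and 7.99 ± 0.52% with Phen-DC3, and 25.3 ± 0.18% in unnamed controls and 24.2 ± 0.95% with Braco-19. This share moves with several results below, which are therefore also given after a correction for gene length.

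Per kilobase of gene model, the ATG8 family, the receptor Sqstm1 and the lysosomal membrane genes stood at the top of the pathway. Gabarap was highest with a mean over the 18 libraries of 595 CPM per kb, followed by Sqstm1 (265) and Lamp1 (241), the main lysosomal membrane glycoprotein. Map1lc3a (143), Map1lc3b (126), Lamp2 (125), Gabarapl1 (107) and Gabarapl2 (81.0) came next. The genes that build the autophagosome were lower: Ulk1, the initiating kinase, had 7.15 CPM per kb, Becn1 33.5, Atg5 16.8 and Atg7 6.42. Atg2b (4.93), Atg14 (4.19) and Atg10 (2.38), the enzyme that joins ATG12 to ATG5, were lowest. These ranks pool groups whose length profiles differ, as the plot of length-scaled levels shows.

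**Figure D1:**
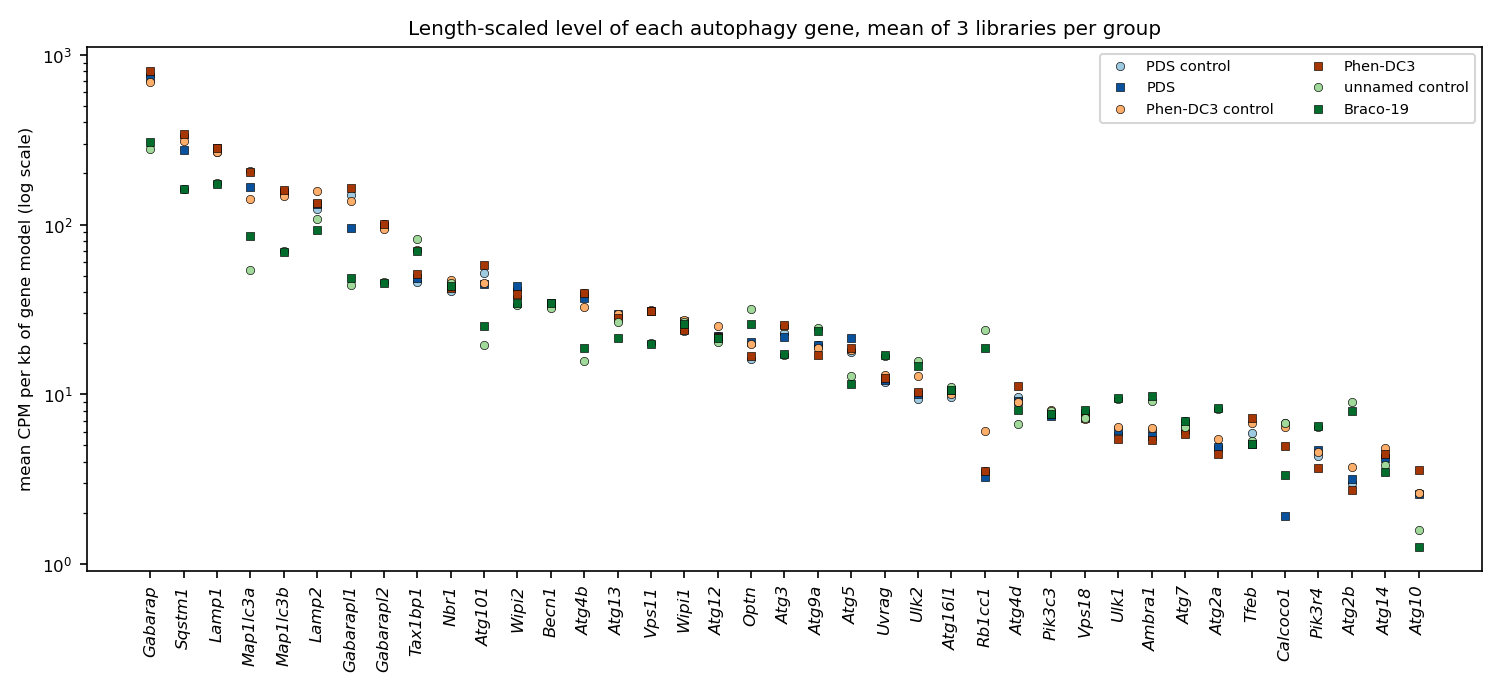
Mean level of each of 39 autophagy genes in CPM per kb of gene model (log axis), ordered by the mean over all 18 libraries, with 1 point per group (mean of 3 libraries; circles are controls, squares are compounds). Gabarap is highest at 595 CPM per kb over all libraries and Atg10 lowest at 2.38; the 5 ATG8 family genes are lower, and Rb1cc1 and Atg2b higher, in the unnamed control and Braco-19 groups than in the other 4.

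The first comparison asked which autophagy genes differed between PDS and its controls. Gabarapl1, an ATG8 family member, and Sqstm1, the receptor that carries ubiquitin-tagged cargo to the autophagosome, fell, and Atg5, a subunit of the conjugation complex, rose. The other 36 genes did not pass the threshold, and no role group held more than 1 called gene. The test was edgeR's two-sided quasi-likelihood F-test in 1 model of all 18 libraries, with Benjamini-Hochberg adjusted p-values over 14184 genes and a threshold of 0.05. A log2 fold change is followed by its standard error.

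Gabarapl1 (ENSRNOG00000053362, chromosome 4, 163293724 to 163302858 in the table's coordinates, of a genome build that the sources used here do not give) had 249, 256 and 248 CPM in the PDS controls and 173, 162 and 150.1 CPM with PDS. The 3 treated libraries lay below all 3 controls, and the controls were close to each other. The difference was log2 -0.63 ± 0.12, or 0.646 of the control level (adjusted p = 0.0028). It passed the threshold in all 16 alternative analyses of this comparison, among them each left-out library and the length correction (log2 -0.62). After that correction the same 3 genes were called, beside 8.62% of all tested genes (4.81% higher and 3.81% lower). The other 4 ATG8 genes did not pass: Map1lc3b, the usual marker of autophagosomes, had 284, 284 and 289 CPM in controls and 285, 279 and 291 CPM with PDS (log2 -0.01 ± 0.05, 95% interval -0.12 to 0.11). Gabarap (log2 -0.06), Gabarapl2 (-0.02) and Map1lc3a (-0.33 ± 0.25) were likewise below the threshold.

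Sqstm1 (ENSRNOG00000003147, chromosome 10, 35704730 to 35716294) had 641, 708 and 687 CPM in controls and 554, 573 and 551 CPM with PDS. The groups did not overlap, and the fall was to 0.825 of the control level (log2 -0.28 ± 0.08, adjusted p = 0.038). Atg5 (ENSRNOG00000000322, chromosome 20, 49318308 to 49393140) had 34.7, 34.6 and 34.3 CPM in controls and 40.3, 40.1 and 44.0 CPM with PDS, again without overlap (log2 0.27 ± 0.08, 1.2-fold, adjusted p = 0.032). Both lay near the threshold. Atg5 was no longer called in 10 of the 16 alternatives, every left-out library among them, with adjusted p up to 0.18. Sqstm1 was lost in 7 of them, with adjusted p up to 0.15.

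Of the autophagy genes, 1 higher and 2 lower calls stand against 8.09% of all tested genes called with PDS (5.13% higher and 2.96% lower), so the share of 7.69% was near that of the table. The groups did not overlap for 10 of the 39, against 33.3% of all tested genes. The median change of the 39 was log2 -0.01, against 0.02 over all genes, and the median size of change without regard to sign was 0.09, against 0.18. Uncalled genes with the smallest p included Optn, a receptor used in mitophagy. It had 86.0, 66.5 and 79.4 CPM in controls and 92.7, 96.1 and 104 CPM with PDS, without overlap (log2 0.34 ± 0.11, adjusted p = 0.075). Wipi1, which binds the marked membrane patch, was also separated (log2 0.20 ± 0.08, adjusted p = 0.12). For 30 of the 36 uncalled genes the 95% interval lay within log2 -0.5 to 0.5. Apart from Calcoco1, described below, the uncalled genes lay between log2 -0.33 for Map1lc3a and 0.34 for Optn. All 6 nucleation genes, all 5 membrane supply genes, all 5 initiation genes and all 5 lysosome and fusion genes were among them.

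Initiation and nucleation genes did not pass with PDS. Ulk1 had 30.6, 30.8 and 24.7 CPM in controls and 28.5, 30.2 and 31.9 CPM with PDS, and the groups overlapped (log2 0.07 ± 0.12). Becn1, the scaffold of the lipid kinase complex, had 119, 117 and 133 CPM in controls and 136, 128 and 121 CPM with PDS (log2 0.06 ± 0.07). Tfeb had 14.8, 14.0 and 12.9 CPM in controls and 10.2, 13.2 and 12.6 CPM with PDS (log2 -0.21 ± 0.14, adjusted p = 0.39). Lamp1 had 1049.6, 1085 and 1085 CPM in controls and 1144, 1135 and 1126 CPM with PDS. These Lamp1 groups did not overlap, but the difference did not pass the test (log2 0.08 ± 0.05, adjusted p = 0.36) and was 0.02 after length correction.

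**Figure D2:**
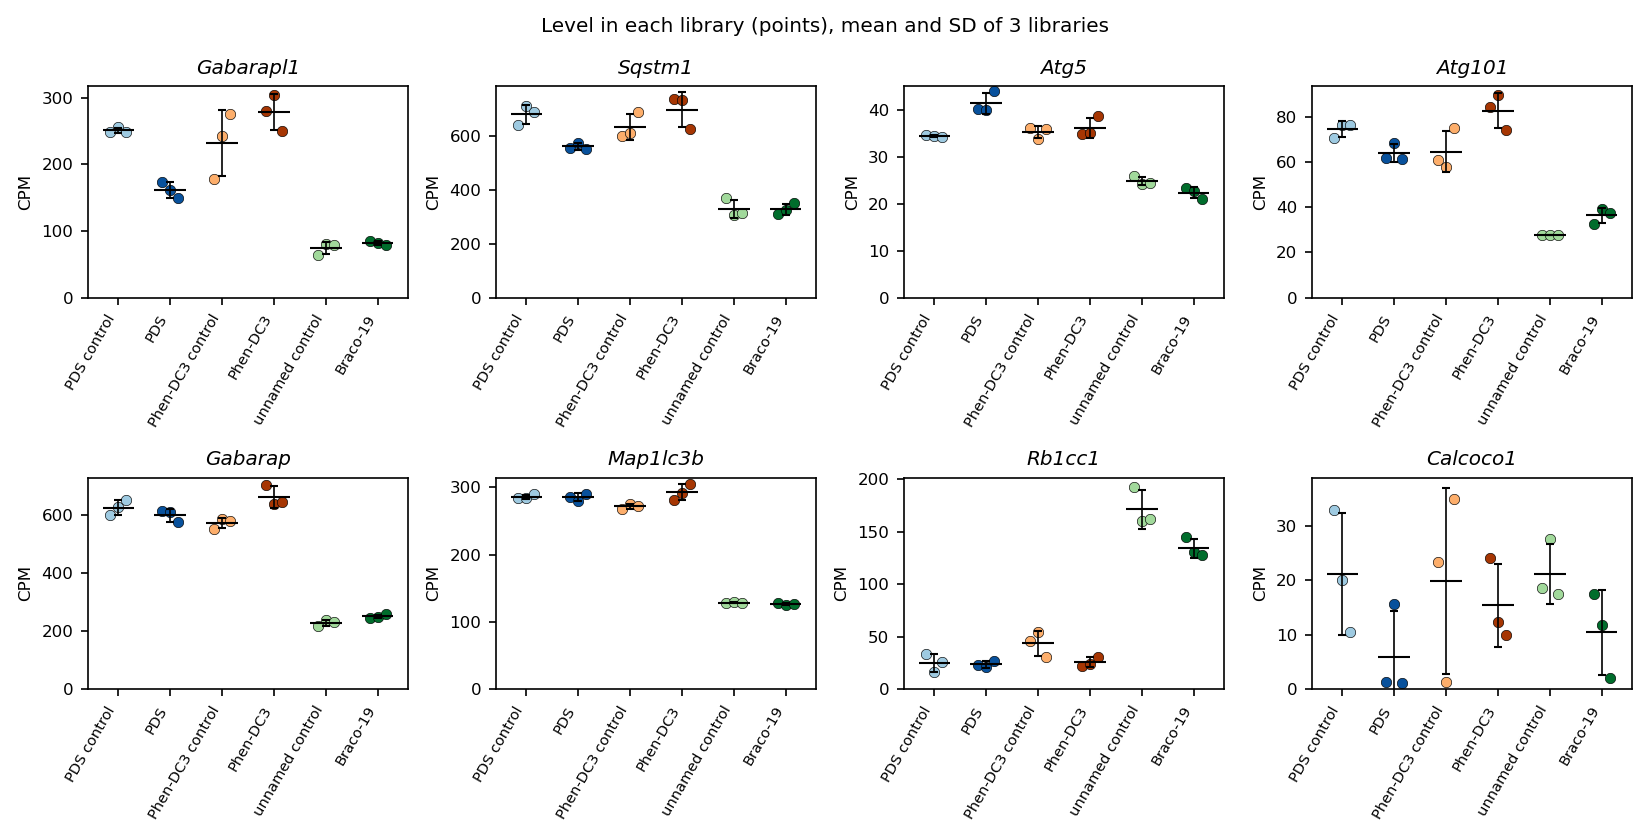
CPM in each library (points) with the mean and SD of 3 libraries for 8 autophagy genes in the 6 groups; axes start at 0, which cuts the lower SD bar of Calcoco1 in the PDS group. Gabarapl1 is at 150.1 to 173 CPM with PDS against 248 to 256 in its controls, and Calcoco1 ranges from 1.06 to 15.6 CPM among the PDS libraries.

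Calcoco1, a receptor in selective autophagy of the endoplasmic reticulum, had the lowest fold with PDS and no call. It had 32.8, 19.97 and 10.5 CPM in PDS controls and 1.30, 15.6 and 1.06 CPM with PDS (log2 -1.82 ± 1.09, adjusted p = 0.34). It was as uneven elsewhere, with 23.3, 1.35 and 34.9 CPM in Phen-DC3 controls and 17.5, 11.7 and 2.12 CPM with Braco-19. Within a group its highest library was up to 25.8 times its lowest, against 2.39 times for Atg10 and 2.35 times for Map1lc3a, the next in that order. Its interval with PDS ran from log2 -4.20 to 0.55.

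For Phen-DC3 the same question gave 5 genes near the threshold. Atg101, a small subunit of the ULK1 complex, Gabarap, and Atg4b, the protease that primes ATG8 proteins, rose. Ulk2, the second initiating kinase, and Atg2b, a lipid-transfer protein, fell. The 3 that rose have gene models of 822 to 1457 bp, and the 2 that fell have models of 5638 and 9661 bp. After correction for gene length 0 of the 39 were called.

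Atg101 (ENSRNOG00000007756, chromosome 7, 142929400 to 142938554) had 61.0, 57.6 and 75.0 CPM in Phen-DC3 controls and 84.4, 89.4 and 74.1 CPM with Phen-DC3. The third control library and the third treated library crossed. Its change was log2 0.36 ± 0.10 (adjusted p = 0.032) and 0.25 after length correction (adjusted p = 0.13). Gabarap (ENSRNOG00000017417, chromosome 10, 56601288 to 56604221) had 551, 585 and 578 CPM in controls and 704, 638 and 643 CPM with Phen-DC3, without overlap (log2 0.21 ± 0.06, adjusted p = 0.039). With the length correction its change was 0.02.

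Atg4b (ENSRNOG00000018403, chromosome 9, 100888501 to 100918637) had 45.3, 44.7 and 52.2 CPM in controls and 61.5, 61.1 and 51.3 CPM with Phen-DC3, and the third libraries again crossed (log2 0.29 ± 0.09, adjusted p = 0.047). Atg2b (ENSRNOG00000004519, chromosome 6, 129449449 to 129509720) had 38.8, 38.5 and 31.2 CPM in controls and 22.0, 25.8 and 31.6 CPM with Phen-DC3 (log2 -0.45 ± 0.12, adjusted p = 0.033). Ulk2 (ENSRNOG00000002763, chromosome 10, 48050803 to 48129377) had 73.3, 75.9 and 67.8 CPM in controls and 53.6, 52.1 and 67.9 CPM with Phen-DC3 (log2 -0.32 ± 0.10, adjusted p = 0.049). In both genes the third treated library was at the level of the third control library. After length correction the change was 0.00 for Atg2b and -0.07 for Ulk2.

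The 5 calls (12.8% of the 39) compare with 8.01% of all tested genes called with Phen-DC3 (2.19% higher and 5.82% lower), and 0 with 0.331% after length correction. At an unadjusted p under 0.05 there were 15, against 28.9% of all tested genes. The medians were log2 -0.04 for the autophagy genes and -0.01 for all genes. Across the 39 genes the change fell with gene length (Spearman rho = -0.72, against -0.44 across all tested genes, with all points from the same 6 libraries). The calls also rested on single libraries. Without control replicate 3 the count was 6 higher and 10 lower, and without Phen-DC3 replicate 3 it was 3 and 6. Without any 1 of the other 4 libraries it was 0. Whether length or these libraries account for the calls was not tested.

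Among uncalled genes with Phen-DC3, Rb1cc1, the large scaffold of the ULK1 complex, had 46.4, 54.3 and 30.4 CPM in controls and 22.0, 23.8 and 30.9 CPM with Phen-DC3 (log2 -0.77 ± 0.24, adjusted p = 0.061). Its length-corrected change was -0.41. Gabarapl1 had 178, 242 and 275 CPM in controls and 280.1, 304 and 249.99 CPM with Phen-DC3 (log2 0.26 ± 0.12, adjusted p = 0.16). Sqstm1 had 599.6, 611 and 686 CPM in controls and 736, 730.0 and 622 CPM with Phen-DC3 (log2 0.14 ± 0.08, adjusted p = 0.26). The groups overlapped for all of these.

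Other core genes did not pass with Phen-DC3. Map1lc3b had 268, 275 and 273 CPM in controls and 282, 291 and 306 CPM with Phen-DC3, without overlap (log2 0.11 ± 0.05, adjusted p = 0.19). Atg5 had 36.3, 33.9 and 35.9 CPM in controls and 34.9, 35.1 and 38.7 CPM with Phen-DC3 (log2 0.04 ± 0.08). Becn1 had 126, 124 and 119 CPM in controls and 127, 127 and 121 CPM with Phen-DC3 (log2 0.02 ± 0.07). Ulk1 (log2 -0.22 ± 0.12), Tfeb (0.10 ± 0.14) and Lamp1 (0.09 ± 0.05) did not pass. For 25 of the 34 uncalled genes the 95% interval lay within log2 -0.5 to 0.5. All 5 ATG8 genes, with gene models of 822 to 1840 bp, had positive values. Of these, 1 was called, and 0 after length correction. Values for the uncalled genes ran from -0.77 for Rb1cc1 to 0.53 for Map1lc3a, and no nucleation, cargo receptor, or lysosome and fusion gene was called.

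With Braco-19, 0 of the 39 autophagy genes passed the threshold in edgeR, against 0.275% of all tested genes. At an unadjusted p under 0.05 there were 6 genes, and 18.8% of all tested genes reached it. DESeq2 called 1 higher, and a fit to these 6 libraries alone called 1 higher and 2 lower. The groups did not overlap for 14 genes, against 28.1% of all tested genes. The median change was log2 -0.02, against 0.00 over all genes, and 30 of the 39 intervals lay within log2 -0.5 to 0.5. Values ran from -1.02 for Calcoco1 to 0.66 for Map1lc3a.

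Atg101 had the smallest p with Braco-19. It had 27.9, 27.8 and 27.8 CPM in the unnamed controls and 32.8, 39.0 and 37.3 CPM with Braco-19, without overlap (log2 0.38 ± 0.10, adjusted p = 0.10). Map1lc3a, an LC3 gene, had the largest positive value, with 39.5, 61.5 and 55.9 CPM in controls and 69.1, 86.1 and 92.7 CPM with Braco-19, also without overlap (log2 0.66 ± 0.26, adjusted p = 0.21). Atg13, the regulatory subunit of the ULK1 complex, had 41.1, 39.5 and 34.2 CPM in controls and 33.6, 29.1 and 29.4 CPM with Braco-19, without overlap (log2 -0.32 ± 0.10, adjusted p = 0.15). Optn had 149, 159 and 149 CPM in controls and 137, 117 and 119 CPM with Braco-19 (log2 -0.29 ± 0.11, adjusted p = 0.19).

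The 3 genes called with PDS did not pass with Braco-19. Gabarapl1 had 63.4, 81.2 and 78.8 CPM in unnamed controls and 85.4, 82.2 and 78.5 CPM with Braco-19 (log2 0.14 ± 0.12). Sqstm1 had 367, 306 and 315 CPM in controls and 310.1, 324 and 350.0 CPM with Braco-19 (log2 -0.01 ± 0.08). Atg5 had 25.9, 24.3 and 24.4 CPM in controls and 23.5, 22.7 and 21.2 CPM with Braco-19, without overlap (log2 -0.15 ± 0.08, adjusted p = 0.30).

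Map1lc3b varied little, with 128, 129.7 and 128 CPM in unnamed controls and 128, 125 and 126 CPM with Braco-19 (log2 -0.03 ± 0.05). Ulk1 (log2 0.03 ± 0.11), Becn1 (0.11 ± 0.07), Tfeb (-0.06 ± 0.14) and Lamp1 (-0.03 ± 0.05) did not pass. The plot of changes by compound sets the 39 genes side by side.

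**Figure D3:**
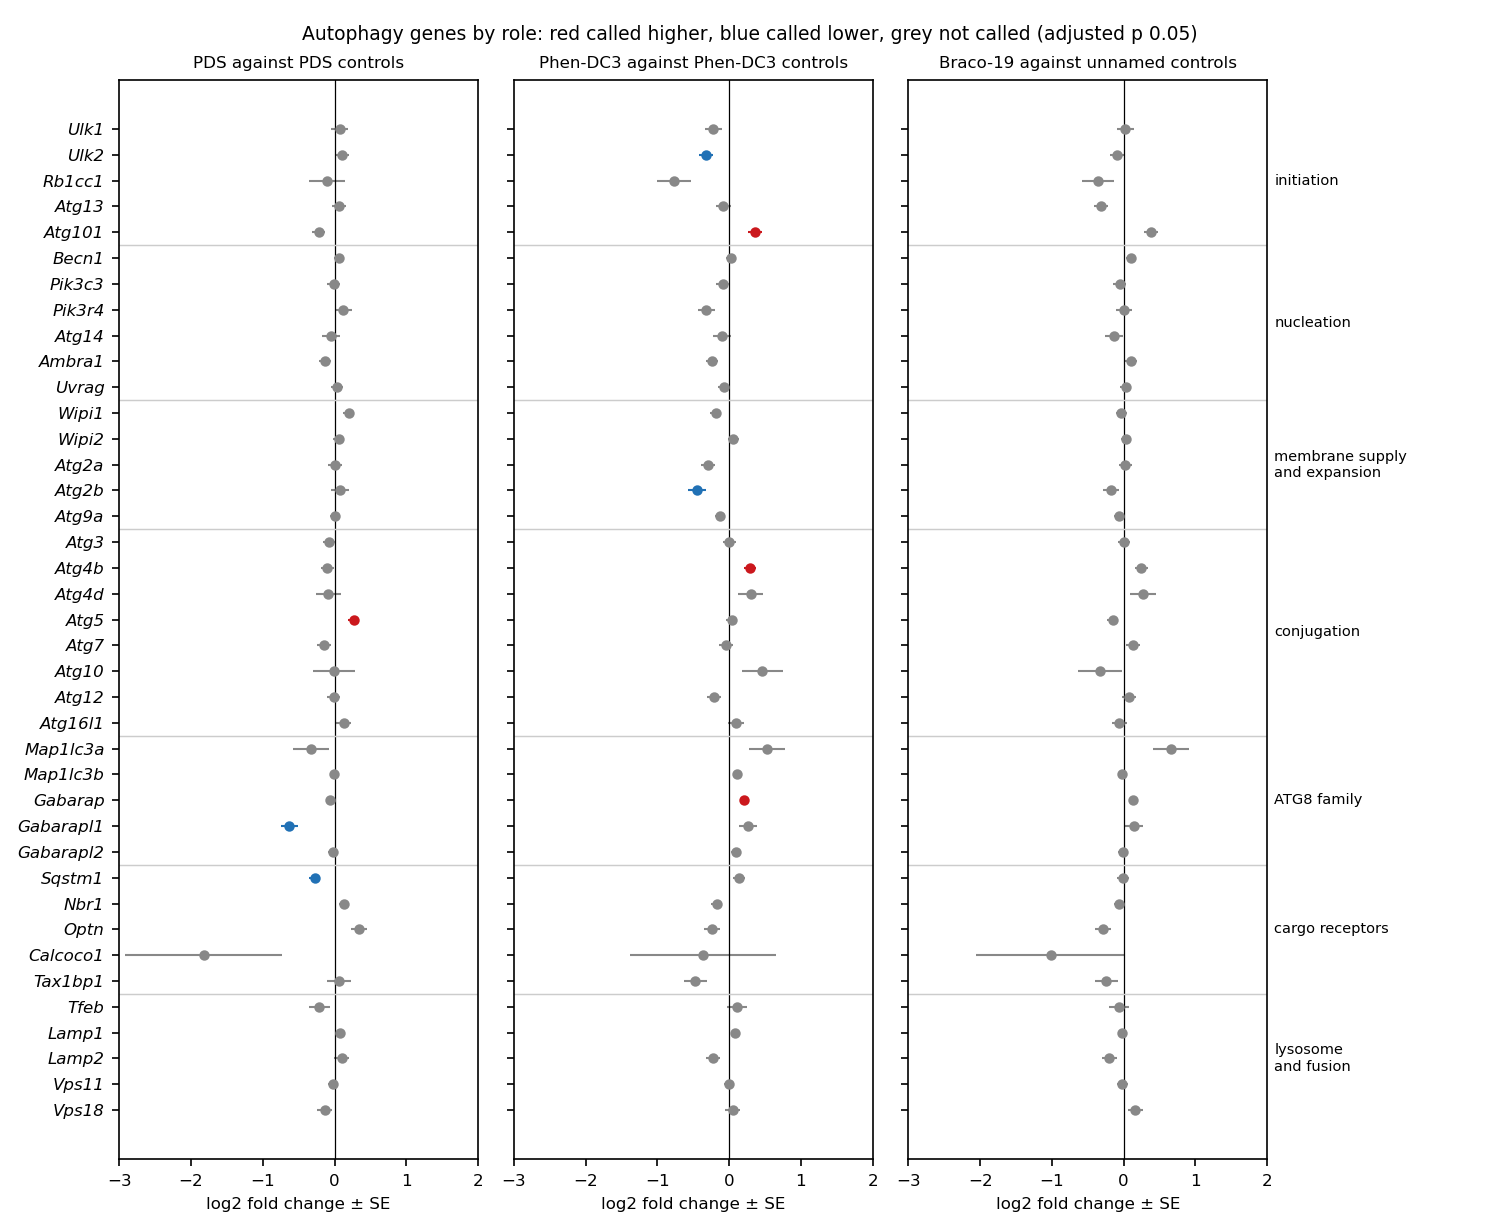
Log2 fold change ± SE of 39 autophagy genes, ordered by role, for each compound against its own controls; colour shows the call at an adjusted p of 0.05. With PDS 1 gene is called higher and 2 lower, with Phen-DC3 3 higher and 2 lower, and with Braco-19 none; Calcoco1 has the widest error bars.

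The effects of the compounds were then compared with each other as differences of log2 fold changes in the same model. The PDS effect differed from the Phen-DC3 effect for 9 of the 39 genes (4 higher and 5 lower), against 20.2% of all tested genes (12.4% higher), and from the Braco-19 effect for 4, against 14% of all tested genes. The Phen-DC3 and Braco-19 effects differed for 0 of 39, against 0.0494% of all tested genes, or 7 genes. At an unadjusted p under 0.05 they differed for 3, against 9.48% of all tested genes. For 24 of the 39 the 95% interval of that difference lay within log2 -0.5 to 0.5, and for the other 15 the interval reached beyond that range.

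Gabarapl1 had the smallest p for the difference between PDS and Phen-DC3. Its PDS effect was lower than its Phen-DC3 effect by log2 -0.89 ± 0.17 (adjusted p = 0.0031) and lower than its Braco-19 effect by -0.77 ± 0.17 (adjusted p = 0.0090). Both differences passed in all 22 alternative analyses. Atg101, with 70.6, 76.5 and 76.4 CPM in PDS controls and 61.5, 68.5 and 61.5 CPM with PDS, differed by -0.58 ± 0.14 (adjusted p = 0.0076) and -0.61 ± 0.14 (adjusted p = 0.0084), and passed in 21 of 22 alternatives each time. Its change with PDS alone did not pass (log2 -0.22, adjusted p = 0.16).

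Optn differed in the other direction, by log2 0.57 ± 0.16 from Phen-DC3 (adjusted p = 0.019) and 0.62 ± 0.16 from Braco-19 (adjusted p = 0.016). The first of these was 0.29 after length correction and no longer called. Sqstm1 differed from Phen-DC3 (-0.42 ± 0.11, adjusted p = 0.017) but not from Braco-19 at the threshold (-0.27 ± 0.11, adjusted p = 0.11). Atg5 differed from Braco-19 (0.42 ± 0.11, adjusted p = 0.018) and not from Phen-DC3 at the threshold (0.23 ± 0.11, adjusted p = 0.12). Of the 9 differences from Phen-DC3, 4 were called after length correction: Gabarapl1, Atg101, Sqstm1 and Wipi1. Of all tested genes, 13.3% were called for that difference after the correction.

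Comparisons among the 3 control groups give the levels from which each compound effect is read. Between the PDS and Phen-DC3 controls 36 of the 39 genes did not pass the threshold. Ulk2, Tax1bp1, a ubiquitin-binding cargo receptor, and Lamp2, a lysosomal membrane protein, were higher in Phen-DC3 controls. These 3 of 39 calls stand against 6.09% of all tested genes (4.5% higher and 1.59% lower). Ulk2 had 54.5, 49.0 and 54.6 CPM in PDS controls, below every Phen-DC3 control (log2 0.46 ± 0.10, adjusted p = 0.019). Tax1bp1 had 164, 107 and 168 CPM in PDS controls and 241, 256 and 179.6 CPM in Phen-DC3 controls (log2 0.62 ± 0.16, adjusted p = 0.038). Lamp2 had 225, 189 and 234 CPM and then 291, 295 and 239 CPM (log2 0.35 ± 0.10, adjusted p = 0.045). The change rose with gene length (Spearman rho = 0.54 over the 39 genes, 0.32 over all), and after length correction 1 gene, Lamp2, was called, beside 3.3% of all tested genes (2.02% higher and 1.28% lower). Leaving out Phen-DC3 control replicate 3 raised the count of calls in this comparison to 8 higher and 3 lower. Calls over all tested genes then rose from 864 to 2740.

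The unnamed controls stood far from both. Against the PDS controls 13 autophagy genes were higher and 15 lower, and 28 of 39 is 71.8%, near the 73.3% of all tested genes called (37.7% higher and 35.6% lower). Against the Phen-DC3 controls 10 were higher and 18 lower, again 71.8%, beside 69.5% of all tested genes. The groups did not overlap for 28 and 25 genes, beside 76.9% and 71.2% of all tested genes. At an unadjusted p under 0.05 there were 28 in each comparison, beside 75% and 71.9% of all tested genes. All 5 ATG8 family genes, Sqstm1, Lamp1, Atg4b and Atg101 were lower in unnamed controls in both comparisons. Rb1cc1, Atg2b, Atg2a, Ulk1, Ulk2, Ambra1, Pik3r4, Uvrag, Atg9a and Optn were higher in both. Of these, Atg2b, Atg2a, Ulk1, Ulk2, Ambra1, Pik3r4 and Atg9a turned to lower values after length correction. Ulk1 was then not called in either comparison, and Atg9a not against Phen-DC3 controls. Uvrag and Optn were no longer called in either comparison after the correction, and Rb1cc1 was still called higher. The control group and the share of counts in long genes differ together here, and the 2 cannot be told apart. In bulk RNA, fewer cells of a type and less RNA per cell cannot be told apart either.

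Gabarap had 599, 626 and 649.8 CPM in PDS controls and 218, 239 and 229.5 CPM in unnamed controls (log2 -1.45 ± 0.06, adjusted p = 7.3e-14). Map1lc3b had 284, 284 and 289 CPM and then 128, 129.7 and 128 CPM (log2 -1.15 ± 0.05, adjusted p = 2.2e-13). Gabarapl2 (log2 -1.13 ± 0.07), Gabarapl1 (-1.75 ± 0.13) and Map1lc3a (-1.94 ± 0.26) were lower too, and the libraries of the groups did not overlap for any of the 5. The median over these 5 genes was log2 -1.45, and it was -0.84 after length correction, where all 5 were called lower. Against the Phen-DC3 controls the medians were -1.32 and -0.77, and all 5 were again called lower both ways.

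Sqstm1 was at 367, 306 and 315 CPM in unnamed controls, about as far below the PDS controls (log2 -1.04 ± 0.08, and -0.84 after length correction). Lamp1, with the cluster of CACGTG matches shown above, had 701, 707 and 711 CPM, against 1049.6 to 1085 CPM in PDS controls (log2 -0.60 ± 0.05, and -1.20 after length correction). Vps11, a tether subunit that helps autophagosomes fuse with lysosomes, had a difference of -0.65 ± 0.07, and -1.10 after correction. Atg5 was lower at 25.9, 24.3 and 24.4 CPM (log2 -0.47 ± 0.08), and this was -0.22 after correction.

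Of the 13 higher genes, 6 have gene models over 5000 bp: Ulk2, Rb1cc1, Pik3r4, Ambra1, Atg2a and Atg2b. Rb1cc1 had 33.4, 16.3 and 26.3 CPM in PDS controls and 193, 159.9 and 162 CPM in unnamed controls (log2 2.76 ± 0.24, adjusted p = 1.2e-07), and it was still higher after length correction (log2 1.27). Atg2b had 32.7, 29.3 and 25.0 CPM and then 90.5, 84.7 and 85.6 CPM (log2 1.58 ± 0.12, adjusted p = 2.4e-10), and its sign turned under the correction (log2 -0.41). Over the 39 genes the difference rose with gene length (Spearman rho = 0.81, against 0.50 over all tested genes, with all points from the same 6 libraries). Of the 28 calls, 22 were called after correction, 15 in the same direction and 7 in the opposite one. The counts became 4 higher and 23 lower, beside 67.2% of all tested genes (31.9% higher and 35.2% lower). Against Phen-DC3 controls they became 3 higher and 23 lower, beside 62.7% (29.5% higher and 33.2% lower). Against PDS controls the median of the 39 moved from log2 -0.12 to -0.33, while that of all tested genes moved from 0.02 to -0.04. Nbr1, a cargo receptor near the threshold before correction (log2 0.17 ± 0.08, adjusted p = 0.049), also turned (log2 -0.57). The ATG8 genes, Sqstm1, Lamp1 and Rb1cc1 kept their direction both ways.

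**Figure D4:**
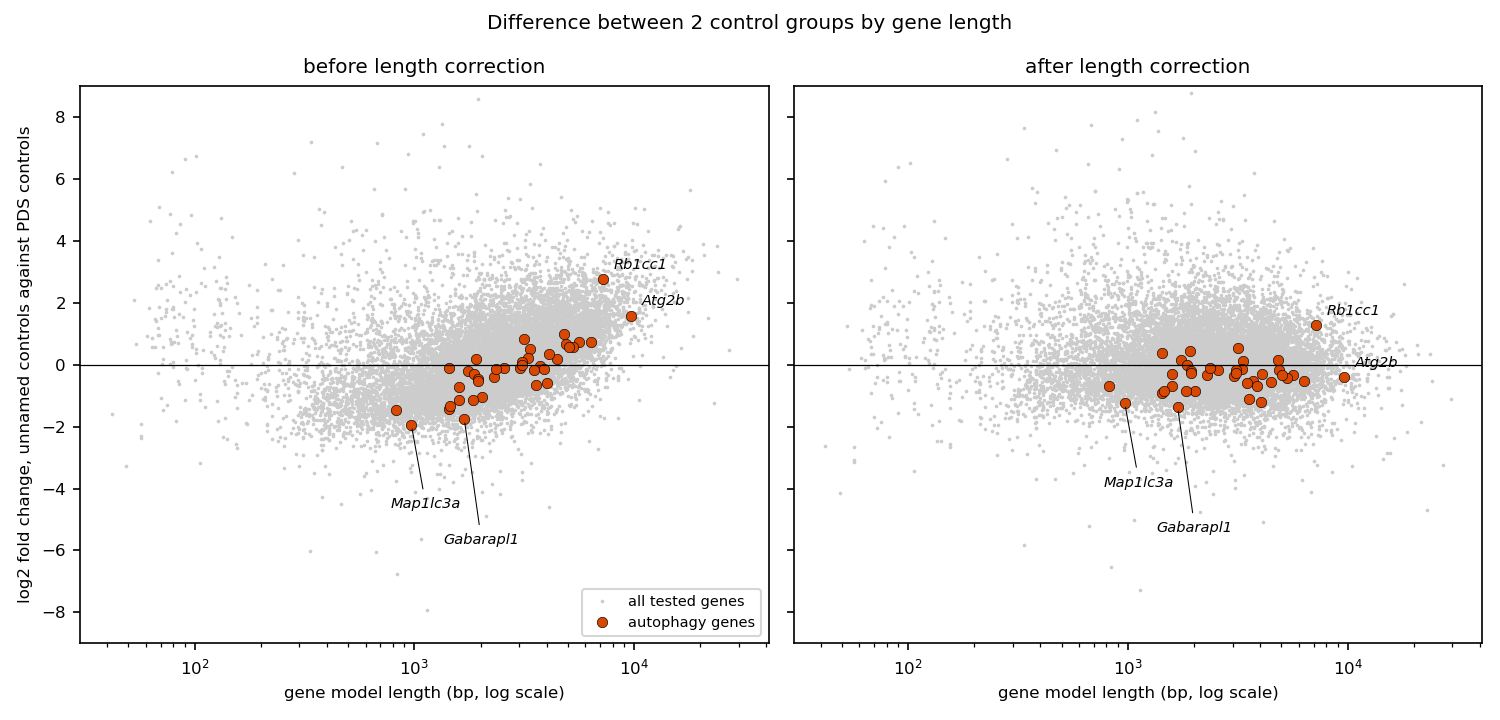
Log2 fold change of unnamed controls against PDS controls for 14184 tested genes (grey) and 39 autophagy genes (orange) by gene model length (log axis), before (left) and after (right) a correction of each library for gene length. The orange points rise with length on the left (Spearman rho = 0.81), and no correlation was computed for the right. There Atg2b is at -0.41 instead of 1.58, while Map1lc3a, Gabarapl1 and Rb1cc1 keep their sign.

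Other markers moved with the same split. The summed level of 6 fibroblast genes (of 7 looked for) was 2643 to 3188 CPM in the PDS and Phen-DC3 groups and their controls, and 5742 to 7531 CPM in the unnamed control and Braco-19 groups. Col1a1 carried that rise, with a mean of 1356 CPM in PDS controls and 4855 CPM in unnamed controls, whereas Thy1 had 935 and 560 CPM and Dcn and Lum were at similar levels in both. That of 6 smooth-muscle and pericyte genes was 1343 to 2211 CPM and 456 to 667 CPM, carried by Tagln and Acta2. Cspg4 went the other way (means of 5.47 CPM in PDS controls and 22.5 CPM in unnamed controls), as did Myh11 (6.38 and 9.07 CPM). The macrophage list (8 of 8 found) summed to 97.0 to 122 CPM and to 35.3 to 48.1 CPM, nearly all of it Cd14, with Ptprc at 0. At low levels, Cd68 (means of 1.07 CPM in PDS controls and 2.57 CPM in unnamed controls) and Csf1r (0.16 and 0.80 CPM) went the other way. Within the PDS comparison, the smooth-muscle sum was 1509.8 to 1664 CPM in controls and 2024 to 2211 CPM with PDS. It was likewise separated in the Phen-DC3 comparison, with 1343 to 1583 CPM in controls and 1652 to 1943 CPM with Phen-DC3, and Tagln made up most of the sum in both. Acta2 had means of 283 and 290 CPM in PDS controls and with PDS, and 282 and 313 CPM in the Phen-DC3 comparison. Cspg4 was lower with PDS (5.47 and 4.48 CPM), while Myh11 and Des were higher. With Phen-DC3, Myh11 (8.51 and 7.21 CPM) and Des were lower, while Cspg4 was higher. The part of all these markers in the differences of the autophagy genes was not tested.

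Genes that work with the pathway were counted from 6 lists of 122 symbols, of which 116 were found and 114 tested. With PDS 1 was called higher and 1 lower, both of them in mitophagy. Bnip3, a hypoxia-induced receptor on the mitochondrial surface, rose from 278 to 449 CPM (log2 0.69 ± 0.08, adjusted p = 1.2e-05). Pink1, the kinase that marks damaged mitochondria, fell from 173 to 125 CPM (log2 -0.47 ± 0.08, adjusted p = 0.00049). As a share of the 114 tested, these 2 calls are below the 8.09% of all tested genes called. Both lie among the 15 tested mitophagy and ER-phagy genes, where they are 13.3%. None of 26 lysosomal genes, 16 V-ATPase subunits (the pump that acidifies the lysosome), 28 nutrient-sensing genes, 20 fusion and further core factors and 9 transcription factors was called. The nearest was Nprl3, a nutrient-sensing subunit (log2 0.31 ± 0.10, adjusted p = 0.053), followed by the lysosomal protease Ctsd (-0.26 ± 0.08, adjusted p = 0.059), which passed after length correction (adjusted p = 0.036).

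With Phen-DC3, 2 related genes were called higher, Atp6v1f (log2 0.45 ± 0.13) and Phb2 (0.32 ± 0.10), and 3 lower, Vps41 (-0.38 ± 0.11), Rubcn (-0.37 ± 0.11) and Mitf (-0.53 ± 0.14). ATP6V1F is a V-ATPase subunit, PHB2 a mitophagy receptor of the inner mitochondrial membrane, VPS41 a lysosomal tether, RUBCN a brake on autophagosome maturation, and MITF a transcription factor related to TFEB. The 5 calls are 4.39% of the 114, beside 8.01% of all tested genes (2.19% higher and 5.82% lower). After length correction 0 were called, beside 0.331% of all tested genes. With Braco-19, 0 of 114 were called by edgeR, beside 0.275% of all tested genes, and 24 reached an unadjusted p under 0.05, as did 18.8% of all tested genes. Pink1 had the smallest adjusted p (log2 0.28 ± 0.08, adjusted p = 0.11). Between the Phen-DC3 and PDS controls, 5 were higher: Atp6v1c1, Atp6ap2, Vps41, Sec62 and Mitf, with log2 differences of 0.37 to 0.54. They are 4.39% of the 114, near the 4.5% of all tested genes called higher.

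Between unnamed and PDS controls, 31 of the 114 related genes were higher and 61 lower, 80.7% in all beside 73.3% of all tested genes. V-ATPase subunits were mostly lower (11 of 16, with 2 higher), and 13 of 16 were lower after length correction. Lysosomal genes were lower in 14 of 26 and higher in 6. Over all tested genes 35.6% were lower and 37.7% higher, and 35.2% were lower after correction. Bnip3 (log2 -1.68 ± 0.08) and Pink1 (-1.49 ± 0.08) were lower, and both were called after correction (-1.26 and -1.47). Mtor, the kinase that holds autophagy back when nutrients are present, was higher by 2.16 ± 0.12, which shrank to 0.35 under the correction.

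Some counts may hold reads of a neighbour, and the sources used here do not say whether strand was used in counting. Wipi1 shares 3585 bp with Arsg on the opposite strand, and Sqstm1 shares 47 bp with Mrnip. Arsg had 8322 counts over all libraries beside 14971 for Wipi1, and Mrnip had 1070 beside 162497 for Sqstm1.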

How the data were processed

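The authors deposited 1 table of read counts per gene for 18 libraries of 6 groups. Per the submitters' processing notes, CASAVA, HISAT2 and featureCounts 1.5.0-p3 were used. No genome build, annotation release or strand setting is named in labels or headers. Genes were filtered by edgeR's filterByExpr. Counts were fitted with edgeR 4.0.16 (TMM factors, robust quasi-likelihood, 6 group means, 12 residual degrees of freedom, R 4.3.3), and p-values were adjusted by Benjamini-Hochberg over all tested genes. Standard errors are the log2 fold change over the square root of F. CPM use TMM-scaled library sizes. Depth was 15715121 to 18369443 counts per library. Whether counting error or replicate spread limits single genes was not tested. For the length correction, each library's log CPM deviation from the gene mean (prior count 2) was smoothed on log2 gene length (lowess, span 0.3) and entered as an offset.

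All 40 genes could be named. Values per library are given for genes past the threshold with a compound and for 8 core genes. Up to 4 genes of each related list per compound, and up to 8 per control comparison or effect difference, were named in order of p. The genes and lists were chosen with earlier results of these data known. Alternatives were other scaling factors, no count filter, limma-voom 3.58.1, DESeq2 1.42.0, the length correction, a replicate block, fits to the compared groups alone, and each library left out. The model code was tested on simulated data. Atg4a was not analysed here, since its symbol and synonyms matched no gene name.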

Additional observations from a re-analysis of the deposited data

Results flagged for a closer look

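The PDS effect differed from the effect of another compound, by a test of the difference itself in edgeR, for 13 combinations of gene and compound. Against Phen-DC3 the difference (PDS effect minus Phen-DC3 effect, log2) was -0.89 ± 0.17 for Gabarapl1, -0.58 ± 0.14 for Atg101, -0.42 ± 0.11 for Sqstm1, -0.27 ± 0.09 for Gabarap and -0.39 ± 0.12 for Atg4b. It was 0.57 ± 0.16 for Optn, 0.38 ± 0.11 for Wipi1, 0.53 ± 0.17 for Atg2b and 0.42 ± 0.14 for Ulk2. Gabarapl1 and Sqstm1 had values below 0 with PDS and above 0 with Phen-DC3, as did Atg101, Gabarap and Atg4b. Optn, Wipi1, Atg2b and Ulk2 had the opposite signs. Of these 9, Gabarap, Atg4b, Atg2b, Ulk2 and Optn did not pass after length correction.

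Against Braco-19 the difference (PDS effect minus Braco-19 effect, log2) was -0.61 ± 0.14 for Atg101, -0.77 ± 0.17 for Gabarapl1, 0.62 ± 0.16 for Optn and 0.42 ± 0.11 for Atg5. All 4 passed after length correction, and Ambra1 then passed too (log2 -0.37), beside 14.1% of all tested genes. The 2 sets of differences share the 6 libraries of the PDS experiment, so a gene that appears in both is not counted as independent support. The Braco-19 effect is read against the unnamed controls, whose pairing with that compound rests on elimination.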

How the results depend on the processing

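Counts below are autophagy genes called, and log2 values are given per setting. The fall of Gabarapl1 with PDS passed under all 16 alternatives. With PDS, higher calls (1) were 0 with upper-quartile factors, no count filter, the replicate block, and the block with length correction, 2 in a fit to the compared groups alone, and 0 with any library left out (0 to 0). Lower calls (2) were 1 with the block, 1 with block and length correction, 4 in the fit to the groups alone, and 1 to 2 with a library left out. With Phen-DC3, higher calls (3) were 1 without a count filter, 0 with the length correction, the block, both, or the groups alone, and 0 to 6 with a library left out. Lower calls (2) were 1 without a filter, 5 in DESeq2, 0 under the same 4 settings, and 0 to 10 with a library left out. With Braco-19, higher calls (0) were 1 in DESeq2 and 1 in the fit to the groups alone, and 0 to 1 with a library left out, and lower calls (0) were 2 in the groups alone.

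Between Phen-DC3 and PDS controls, higher calls (3) were 1 with length correction, 1 with the block, 0 with both, 0 in the groups alone, and 0 to 8 with a library left out. Lower calls (0) were 1 in DESeq2 and 0 to 3 with a library left out. Between unnamed and PDS controls, higher calls (13) were 4 with length correction, 4 with block and correction, and 11 to 13 with a library left out. Lower calls (15) were 23, 23, and 14 to 16, and the median (log2 -0.12) was -0.33, -0.33, and -0.20 to -0.07. Between unnamed and Phen-DC3 controls, higher calls (10) were 3, 3, and 9 to 10, lower calls (18) were 14 to 17 with a library left out, and the median (-0.16) was -0.27 with upper-quartile factors, -0.32 with length correction, -0.32 with block and correction, and -0.25 to -0.090 with a library left out. Differences between the PDS and Phen-DC3 effects (9) were 4 with length correction, 2 with the block, 1 with both, and 3 to 15 with a library left out. Those between PDS and Braco-19 (4) were 1 with the block, 7 in the groups alone, and 3 to 5 with a library left out, and those between Phen-DC3 and Braco-19 (0) were 0 to 0.

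Some signs reversed under length correction alone and with the block. With Phen-DC3 alone this held for Atg2b (0.0018 with correction). Unnamed against PDS controls became, without and with the block, -0.19 and -0.19 for Ulk1, -0.33 and -0.33 for Ulk2, -0.32 and -0.33 for Pik3r4, -0.42 and -0.42 for Ambra1, -0.54 and -0.54 for Atg2a, -0.41 and -0.41 for Atg2b, -0.29 and -0.29 for Atg9a, and -0.57 and -0.57 for Nbr1. Unnamed against Phen-DC3 controls became -0.15 and -0.15 for Ulk1, -0.60 and -0.61 for Ulk2, -0.25 and -0.25 for Pik3r4, -0.28 and -0.28 for Ambra1, -0.49 and -0.49 for Atg2a, -0.42 and -0.42 for Atg2b, and -0.12 and -0.12 for Atg9a. The difference of the PDS and Phen-DC3 effects on Atg2b became -0.043 and -0.039. The cause of these changes was not tested.

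Over all tested genes, calls with PDS (1148) were 587 with the block, 763 with block and correction, 2053 in the groups alone, and as few as 563 with a library left out. With Phen-DC3 (1136) they were 2056 in DESeq2, 47 with length correction, 1 with the block, 1 with both, 1 in the groups alone, and 0 to 3315 with a library left out. With Braco-19 (39) they were 333 in DESeq2, 2, 7 and 781 with the block, both, and the groups alone, and 1 to 153 with a library left out. Between Phen-DC3 and PDS controls (864) they were 1606 in DESeq2, 468 with correction, 344 with both, 3 in the groups alone, and 0 to 2740 with a library left out. Differences of effects were 1888, 1161 and 696 for PDS and Phen-DC3 (2862) with correction, block and both, and 661, 1062 and 3239 for PDS and Braco-19 (1990) with block, both and the groups alone. For Phen-DC3 and Braco-19 (7) they were 4 with RLE factors, 46 in DESeq2, 0 with correction, 1 with the block and 0 in the groups alone.

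The deviations of same-numbered libraries of a compound and its controls had correlations of -0.04, 0.06 and 0.00 for PDS, and -0.12, -0.03 and -0.25 for Phen-DC3. They were 0.06, 0.07 and 0.01 for Braco-19, where each control correlated best with its own number. The numbers were not taken as pairs in the main model, since the titles do not say what they pair. With the block, Gabarapl1 remained called with PDS.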

Other observations

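Spread between replicates differed among the autophagy genes. Calcoco1 had raw counts from 18 to 597 over the 18 libraries. The conjugation gene Atg10 had the next largest spread within a group, followed by Map1lc3a and Rb1cc1 (2.06 times between the highest and the lowest library). The largest differences between libraries of a group were among Phen-DC3 controls, with a squared difference over counting error of 13.6 to 36.5 per pair. That range overlapped with the 6.85 to 17.0 of the Phen-DC3 libraries, and the other 4 groups had 4.27 to 13.2.

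The share of all counts held by the autophagy genes was 0.507 to 0.510% in PDS controls and 0.486 to 0.490% with PDS. It was 0.515 to 0.526% and 0.518 to 0.525% in Phen-DC3 controls and treated libraries, and 0.365 to 0.385% and 0.366 to 0.374% in unnamed controls and with Braco-19. The PDS share lay below that of all 3 controls, and the largest falls in CPM were those of Sqstm1 (means of 678 CPM in controls and 559.7 CPM with PDS) and Gabarapl1 (251 and 162 CPM), while the median of the 39 genes differed by log2 -0.01. The sums of the other 2 pairs overlapped.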
